A study of Mus musculus with 13 samples.

Results

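Short interspersed elements (SINEs) were counted as 38 subfamilies among the 1552 rows of a repeat table of mouse embryonic stem (ES) cells, after the row for ribosomal RNA was set aside. The members are every row of the SINE class, including 1 row, MER131, of which the class is marked as uncertain. By the start of the name, 10 rows belong to B1, 5 to proto-B1 (PB1), 3 to B2, 2 to B3, 2 to B4, 4 to ID and 4 to MIR. The other 8 rows hold composite and older names, such as RSINE1, ID_B1 and AmnSINE1.

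SINEs are short retrotransposons that encode no protein and are mobilised by the enzymes of LINE-1 elements. B1 and proto-B1 descend from the 7SL RNA of the signal recognition particle, whereas B2, ID and MIR carry a head derived from a tRNA, and B4 joins ID-related and B1-related parts. Active copies are transcribed by RNA polymerase III from internal A and B boxes, and B2 transcripts can be polyadenylated. Most old copies are read only as passengers in introns and untranslated regions of RNA polymerase II transcripts, and silencing by DNA methylation and by repressive histone marks has been described for SINE copies.

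The repeat table holds 1 library for each of 4 conditions, all prepared from polyadenylated RNA of ES cells grown on gelatin with serum and leukemia inhibitory factor. WT cells were the untreated AinV15 line, which carries a doxycycline-inducible cassette site and the reverse tetracycline transactivator at the ROSA26 locus. Dnmt1-/- cells were an untreated line homozygous for a null allele (C allele) of Dnmt1, the maintenance DNA methyltransferase. The WT and Dnmt1-/- libraries of the repeat table are labelled by group only, so their lines are read from the groups. dCas9-OGA cells were AinV15 cells that carried catalytically dead Cas9 fused to a bacterial O-GlcNAcase, the enzyme that removes O-linked N-acetylglucosamine from proteins, and dCas9-OGA-D242A cells carried the same fusion with an inactive enzyme, of which the substitution is spelled D242A in the title and otherwise in a treatment label. Both were given 4 sgRNAs, expressed from human U6 promoters and directed at the U3 promoter of IAP elements, which are LTR retrotransposons and not SINEs, and were induced with 1 µg/mL doxycycline for 48 h, and they are called OGA and D242A below. The recombinant lines were selected after cassette exchange and are not said to be clones or pools, and the WT and Dnmt1-/- lines were derived separately, so effects of the fusion or of Dnmt1 and differences between lines cannot be told apart.

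No consensus of a B1, B2, B4 or MIR subfamily was at hand, so 2 RNA genes related to ID and other tRNA-derived families are shown to place the internal promoter boxes. The sequences are those of RefSeq on GRCm38 (mm10), plus strand, written from the 5′ end. Capitals mark the A box, searched as GCNNAGNGG, and the B box, searched as GTTCNNNNC. The letters were chosen with these sequences known, and both strands were searched. Bc1, the RNA gene from which the rodent ID elements descend, lies at chr7:144914470-144914623. The alanine tRNA gene n-TAagc19 lies at chr13:21259768-21259839.
Bc1: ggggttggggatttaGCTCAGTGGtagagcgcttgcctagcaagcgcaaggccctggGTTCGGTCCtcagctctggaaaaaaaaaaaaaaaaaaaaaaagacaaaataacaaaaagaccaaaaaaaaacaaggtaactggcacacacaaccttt
n-TAagc19: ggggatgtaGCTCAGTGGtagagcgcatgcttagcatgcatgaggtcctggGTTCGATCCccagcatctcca
In Bc1 the A box letters occupied bases 16 to 24 and the B box bases 58 to 66, and in the tRNA gene they occupied bases 10 to 18 and 52 to 60. The first 75 bases of Bc1 matched the tRNA gene at 58 of 69 aligned positions (84.1%), the best of 34 alanine tRNA genes compared. Among 32851 RefSeq promoter windows of 300 bases, 25.0% held the A box letters and 38.7% the B box letters, so a match describes the sequence only.

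The depth allowed small differences to be resolved for most subfamilies. Counts on genes came to between 18693531 (Dnmt1-/-) and 25097983 (WT) per library, and every repeat value below is given in counts per 1000000 gene counts (cpm). SINE counts came to 236894 in WT, 218168 in Dnmt1-/-, 273410 in D242A and 292220 in OGA. They made up 38.2%, 41.4%, 39.6% and 27.9% of all transposon counts in that order. LTR elements stood between 10166 and 10719 cpm in the first 3 of these libraries and at 21960 cpm in OGA, so the lower SINE share there accompanied a higher LTR count. With 1 library per condition no p-value can be given, and all 95% intervals of the repeat values cover counting error only. In bulk RNA, fewer cells that carry a transcript and less of it per cell cannot be told apart. Dnmt1 itself, which checks the labels, was counted 11408 times in WT, 1176 times in Dnmt1-/-, 9339 times in D242A and 13614 times in OGA, or 455, 62.9, 376 and 546 cpm. Markers of ES cells (8 genes, among them Pou5f1 and Nanog) summed to 5411 cpm in WT, 4421 in Dnmt1-/-, 4233 in D242A and 5925 in OGA, and 8 fibroblast markers to between 33.9 and 66.8 cpm. The row for ribosomal RNA took 40.6%, 48.1%, 48.2% and 32.2% of the repeat counts in the same order, so D242A and OGA held the ends of the ES marker and the ribosomal range, and the part of these measures in the SINE differences was not tested.

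Summed over all 38 rows, SINEs stood at 9439 cpm in WT, 11671 cpm in Dnmt1-/-, 11012 cpm in D242A and 11710 cpm in OGA. B2 was the name group with the most counts in every library except that of OGA, in which B1 exceeded it. B2 took 30.5% of SINE counts in WT, 34.1% in Dnmt1-/- and 29.9% in D242A, but 18.5% (Wilson interval from 18.4% to 18.7%) in OGA. B1 took between 21.6% and 25.6%, and B3 between 13.1% and 16.7%. Proto-B1 took between 8.25% and 10.2%, B4 between 5.46% and 7.48%, MIR between 4.21% and 5.31%, and ID between 2.21% and 2.85%. The table gives no lengths or copy numbers, so these shares order counts and not transcription per copy.

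**Figure D1:**
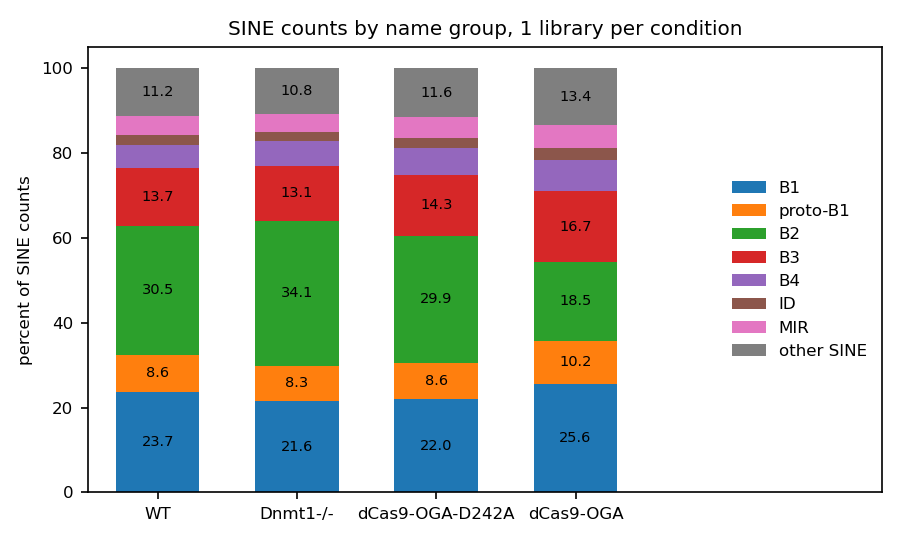
Percent of all SINE counts (vertical axis) held by each name group, stacked, in the 1 library of each condition (horizontal axis). The B2 segment spans 29.9% to 34.1% in WT, Dnmt1-/- and dCas9-OGA-D242A and 18.5% in dCas9-OGA, while every other segment is larger in dCas9-OGA than in its inactive control.

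The first comparison asks how SINE counts differed when the targeted O-GlcNAcase was active. These counts do not separate polymerase III transcripts from SINE copies read as passengers in longer transcripts. B2_Mm1a and B2_Mm1t were lower in OGA than in D242A, while the other name groups were higher on the scale of gene counts and lower on that of total transposon counts. Histone genes of the replication-dependent clusters were also lower, at 38.9 cpm in OGA and 89.0 cpm in D242A, as were nuclear-retained RNAs, at 136 and 249 cpm. The part of these measures in the B2 difference was not tested. B2_Mm1a, a young mouse B2 subfamily, was counted 31841 times in WT, 36416 times in Dnmt1-/-, 37557 times in D242A and 19187 times in OGA. These counts are 1269, 1948, 1513 and 769 cpm, and OGA is the lowest of the 4. The value in OGA was 1.97-fold below that in D242A (log2 ratio -0.98, 95% interval from -1.001 to -0.951). B2_Mm1t, its closest relative by name, was counted 22336, 22664, 24893 and 14606 times in the same order, or 890, 1212, 1003 and 585 cpm. It was 1.71-fold lower (log2 ratio -0.78, from -0.81 to -0.75), and again OGA held the lowest value. B2_Mm2, the third B2 subfamily, was counted 18088, 15369, 19367 and 20295 times, or 721, 822, 780 and 813 cpm. Its log2 ratio was 0.06 (from 0.03 to 0.09), so it was not among the lower ones on gene counts, whereas on total transposon counts it was at -0.53 and on total DNA transposon counts at -0.23.

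**Figure D2:**
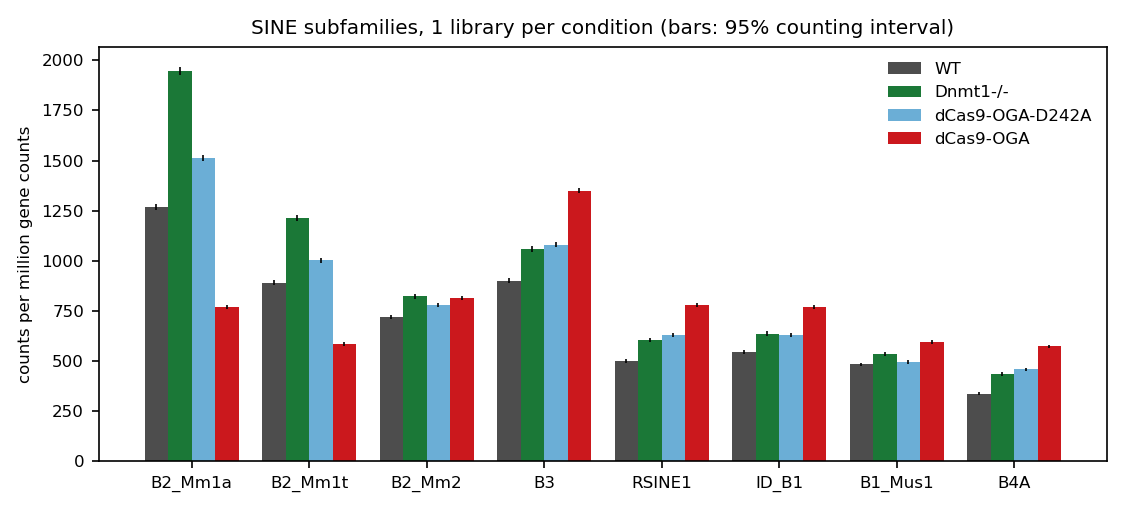
Counts per 1000000 gene counts (cpm) (vertical axis) of 8 SINE subfamilies in the 4 libraries (colours), 1 library per condition, with bars for the 95% counting interval. B2_Mm1a and B2_Mm1t are lowest in dCas9-OGA (769 and 585 cpm) and highest in Dnmt1-/- (1948 and 1212 cpm), whereas B3, RSINE1, ID_B1, B1_Mus1 and B4A are highest in dCas9-OGA.

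Of the 38 subfamilies, 34 reached 100 counts over both libraries and were compared on the log2(cpm + 0.5) scale. Against D242A, 31 of the 34 were higher and 3 were lower in OGA, namely B2_Mm1a, B2_Mm1t and MIR3. The median difference of the SINE subfamilies was 0.31, equal to the median of 0.31 over all 534 transposon subfamilies, and the middle of the SINE distribution was narrow, with quartiles at 0.27 and 0.34. None of the 34 was 2-fold higher or lower, where 5.24% of all transposon subfamilies were past 2-fold on the higher side and 0.375% on the lower. Measured from the median subfamily, B2_Mm1a (-1.29) and B2_Mm1t (-1.09) were past 2-fold lower, where 1.12% of all subfamilies were, and no SINE was past 2-fold higher, where 3.56% were. B2_Mm1a had the third lowest and B2_Mm1t the fifth lowest difference among the 534 subfamilies.

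**Figure D3:**
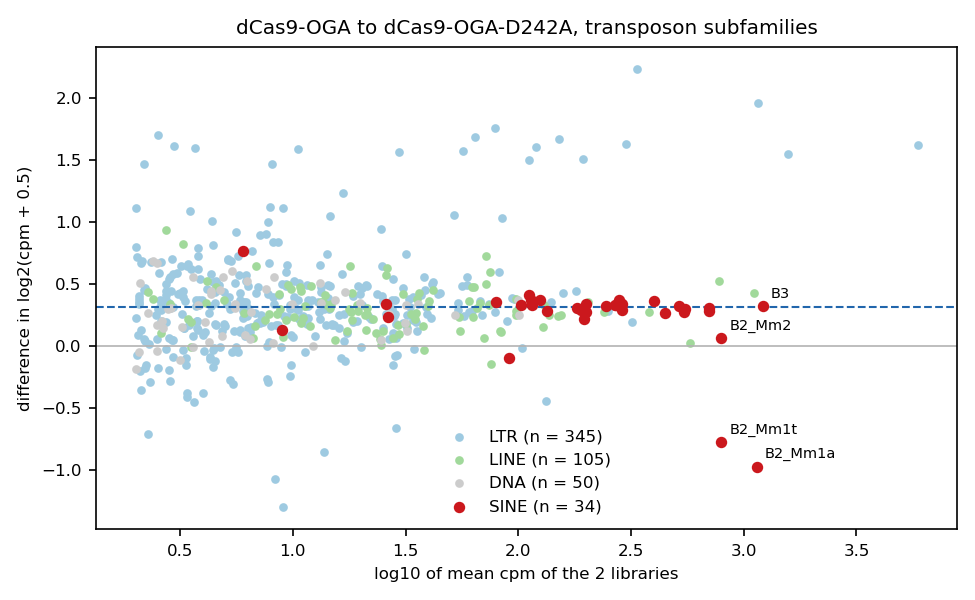
Difference in log2(cpm + 0.5) between dCas9-OGA and dCas9-OGA-D242A (vertical axis) against the log10 of the mean cpm (horizontal axis) for 534 transposon subfamilies, coloured by class, with a dashed line at their median of 0.31. B2_Mm1a (-0.98) and B2_Mm1t (-0.78) lie far below the band of other subfamilies with many counts, and B2_Mm2 lies at 0.06.

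On gene counts the other name groups had nearly equal ratios. The summed log2 ratio was 0.31 for B1, 0.33 for proto-B1, 0.31 for B3, 0.33 for B4, 0.30 for ID and 0.23 for MIR, against -0.60 (from -0.62 to -0.59) for B2. The B2 ratio was 0.91 below that of B1 on the log2 scale (interval of the difference from -0.93 to -0.89). The intervals of the differences from B1 included 0 for proto-B1, B3, B4 and ID, whereas MIR was lower than B1 by a difference of -0.07 (from -0.11 to -0.03). Among the MIR names MIR (0.31), MIRb (0.27) and MIRc (0.33) lay within the range of the B1 subfamilies, and MIR3 (-0.10) lay below it. B2_Mm2 was also below B1, by a difference of -0.25 (from -0.28 to -0.21). In cpm, B2_Mm1a and B2_Mm1t together differed by -1161 and the other SINEs by 1859, which left the sum of all SINEs 698 cpm higher (log2 ratio 0.09, from 0.08 to 0.10).

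**Figure D4:**
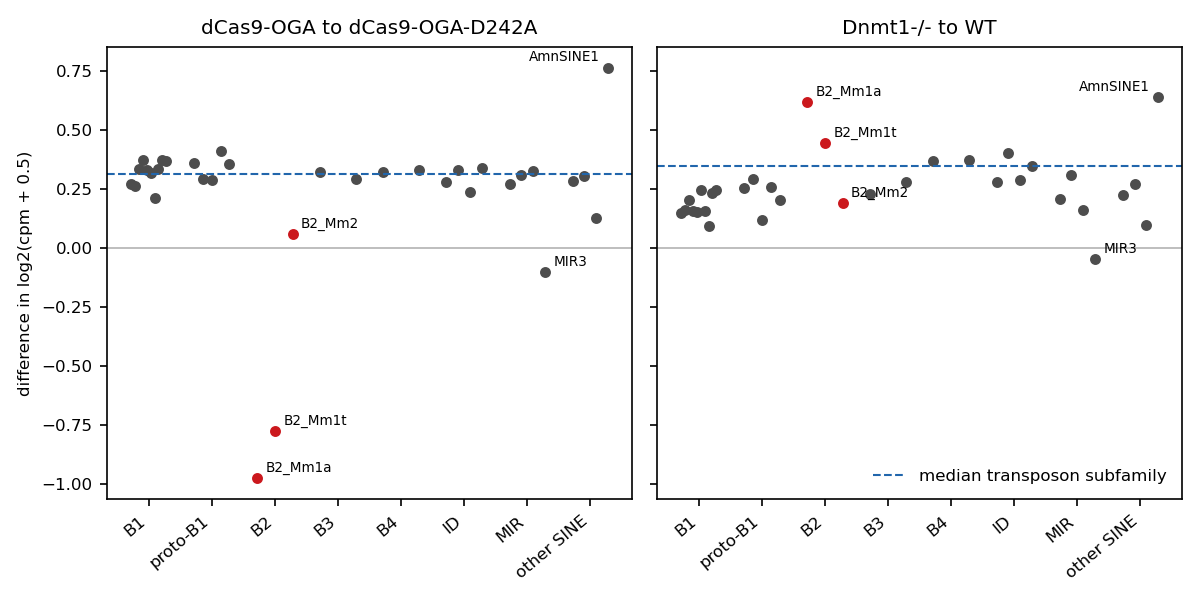
Difference in log2(cpm + 0.5) (vertical axis) of the 34 SINE subfamilies with at least 100 counts, by name group (horizontal axis), for dCas9-OGA to dCas9-OGA-D242A (left) and Dnmt1-/- to WT (right), with B2 in red and a dashed line at the median transposon subfamily. B2_Mm1a and B2_Mm1t are at -0.98 and -0.78 on the left and at 0.62 and 0.45 on the right, while AmnSINE1 (0.76 and 0.64) and MIR3 (-0.10 and -0.05) stand apart from the remaining points.

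Ratios between 2 subfamilies of the same library do not depend on the scaling of that library. Per count of B3, an older rodent relative of B2, B2_Mm1a was counted 1.41 times in WT, 1.84 times in Dnmt1-/-, 1.40 times in D242A and 0.570 times in OGA. The ratio to B3 was thus nearly the same in WT and D242A, and OGA stood apart on one side and Dnmt1-/- on the other. Per count of B1_Mus1 it was 2.63, 3.64, 3.07 and 1.29 in the same order, and per count of B2_Mm2 1.76, 2.37, 1.94 and 0.945. On these, D242A was above WT, while OGA and Dnmt1-/- again held the ends. B2_Mm1t per count of B3 was 0.988, 1.15, 0.929 and 0.434 in the same order. B2_Mm2 per count of B3 was 0.800, 0.778, 0.723 and 0.603, a smaller spread with the lowest value again in OGA. B2_Mm1a per count of B2_Mm1t moved less, between 1.31 in OGA and 1.61 in Dnmt1-/-. By count, B2_Mm1a ranked first among SINEs in WT, Dnmt1-/- and D242A and at rank 4 in OGA, in which B3 ranked first. The aligner gives each read 1 position among equally good ones, so reads can move between close relatives such as B2_Mm1a and B2_Mm1t, which differed in the same direction.

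The B1 subfamilies, which derive from 7SL RNA, spanned 0.21 to 0.37 between OGA and D242A, 0.00 to 0.28 between D242A and WT and 0.21 to 0.64 between OGA and WT. B1_Mus1 was counted 12117, 9994, 12248 and 14867 times in WT, Dnmt1-/-, D242A and OGA, and B1_Mus2 9644, 8040, 10089 and 12161 times. All 10 were higher in OGA than in D242A, from 0.21 for B1_Mm to 0.37 for B1F and B1F1. B1F was counted 5531, 4599, 6042 and 7857 times and B1F1 2408, 2109, 2702 and 3516 times. B1_Mm, one of the young B1 names, was counted 4549, 3782, 4503 and 5249 times, and was at 0.00 (interval from -0.06 to 0.06) between D242A and WT. Among the 34 subfamilies the 3 lowest differences of that comparison were those of B1_Mm, B1_Mus1 (0.03) and B1_Mus2 (0.08). These 3 names summed to a log2 ratio of 0.04 (from 0.02 to 0.07), and the older B1F, B1F1 and B1F2 to 0.18 (from 0.14 to 0.22). B1_Mm per count of B1F was 0.822 in WT, 0.822 in Dnmt1-/-, 0.745 in D242A and 0.668 in OGA.

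Proto-B1, the forerunners of B1, followed B1 closely in OGA. PB1D10 was counted 7532, 6696, 8716 and 11236 times in the order WT, Dnmt1-/-, D242A and OGA, and PB1D9 5640, 5148, 6439 and 7923 times. PB1D11, at 0.41, was counted 2092, 1863, 2383 and 3186 times and had, among the 34 subfamilies with at least 100 counts, the second highest difference between OGA and D242A, after AmnSINE1. The 5 members spanned 0.29 to 0.41 in that comparison.

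B3 and B4 had 2 rows each. B3 was counted 22616, 19755, 26802 and 33684 times, or 901, 1057, 1079.5 and 1350 cpm, and B3A 9757, 8818, 12265 and 15111 times, in the same order of libraries. B4A was counted 8444, 8122, 11357 and 14278 times, or 336, 434, 457 and 572 cpm, and B4 4487, 4333, 5990 and 7570 times. WT held the lowest cpm and OGA the highest for all 4 of these rows. Between D242A and WT the B4 group was higher by 0.44, which was 0.33 above B1 (from 0.29 to 0.36). B4A per count of B1_Mus1 was 0.697 in WT, 0.813 in Dnmt1-/-, 0.927 in D242A and 0.960 in OGA.

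The ID elements, relatives of Bc1, and the mammal-wide MIR elements held few counts. ID4_ was counted 2349, 2128, 3016 and 3680 times in WT, Dnmt1-/-, D242A and OGA, and ID4 2031, 1999, 2540 and 3211 times. ID2, at 433, 396, 604 and 717 counts, had the second highest difference of the 34 subfamilies between D242A and WT, 0.48.

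Among the MIR elements, MIRb was counted 3803, 3269, 4489 and 5450 times and MIR 3152, 2911, 4033 and 5021 times, while MIR3 was counted 2073, 1494, 2334 and 2185 times. MIR3 was the one MIR name that was lower in OGA than in D242A (log2 ratio -0.10, from -0.19 to -0.02). MIR3 per count of MIRb was 0.545 in WT, 0.457 in Dnmt1-/-, 0.520 in D242A and 0.401 in OGA.

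The 8 other rows held 2 abundant names. ID_B1, a composite of ID and B1 parts, was counted 13662, 11888, 15644 and 19153 times, and RSINE1, an old rodent element, 12564, 11280, 15658 and 19446 times, in the order WT, Dnmt1-/-, D242A and OGA. AmnSINE1, a conserved vertebrate element, was counted 74, 91, 108 and 193 times and had the highest difference of the 34 subfamilies in all 4 comparisons. Its counting interval ran from 0.26 to 1.19 in Dnmt1-/- to WT and from 0.12 to 1.01 in D242A to WT. These cover the next highest values, so its first rank is not resolved there. LFSINE_Vert was counted 195, 156, 213 and 235 times, with intervals that included 0 in each comparison. MamSINE1, MER131, AmnSINE2 and FAM stayed below 100 counts over 2 libraries in every comparison, and the highest count of any of them in 1 library was 53.

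The second comparison asks how SINE counts differed in cells without Dnmt1. On gene counts all name groups were higher in Dnmt1-/-, and on total DNA transposon counts all were lower except B2, of which the log2 ratio was 0.012 with an interval that included 0. Of the 34 subfamilies, 33 were higher in Dnmt1-/- than in WT and 1, MIR3 (log2 ratio -0.05, from -0.14 to 0.05), was not. The median SINE difference was 0.24, below the 0.35 of all 474 transposon subfamilies, and 28 of the 34 lay below that median. None was 2-fold higher or lower, where 3.8% of all transposon subfamilies were past 2-fold on the higher side and 1.05% on the lower. Relative to the median subfamily no SINE passed 2-fold either, where 0.844% of subfamilies were past it on the higher and 2.32% on the lower side. AmnSINE1 (0.64), B2_Mm1a (0.62) and B2_Mm1t (0.45) had the highest differences of the 34, and MIR3, B1_Mur3 (0.09, at 4170 counts in WT and 3311 in Dnmt1-/-) and LFSINE_Vert (0.10) the lowest. B1_Mur3 was counted 4384 times in D242A and 5565 times in OGA.

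B2_Mm1a was 1.54-fold higher in Dnmt1-/- than in WT (log2 ratio 0.62, from 0.60 to 0.64) and B2_Mm1t 1.36-fold higher (0.45, from 0.42 to 0.47), whereas B2_Mm2 was 1.14-fold higher (0.19, from 0.16 to 0.22). On total DNA transposon counts B2_Mm1a stayed higher, at a log2 ratio of 0.16, while B2_Mm1t was at -0.010 and B2_Mm2 at -0.27. The summed ratios were 0.47 for B2, 0.37 for B4, 0.34 for ID, 0.24 for proto-B1, 0.24 for B3, 0.19 for MIR and 0.17 for B1. The B2 ratio exceeded that of B1 by 0.30 (from 0.28 to 0.32), and B2_Mm2 exceeded it by 0.02 (from -0.02 to 0.06). B2_Mm1a and B2_Mm1t gave 1002 cpm of the 2232 cpm by which the SINE sum differed.

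The control fusion is compared with WT next, and then the active fusion with WT. Both comparisons share the WT library with that of Dnmt1-/-, and the second shares the OGA library with the first comparison above, so they are not independent. On total DNA transposon counts the name groups other than B4 were lower in D242A than in WT, and on gene counts all were higher. In D242A none of the 34 subfamilies was lower than in WT, and the differences ran from 0.00 (B1_Mm) to 0.49 (AmnSINE1), with a median of 0.22 against 0.33 for all 492 transposon subfamilies. None of the 34 was past 2-fold, where 3.46% of all subfamilies were on the higher side and 2.85% on the lower. The same held relative to the median subfamily, where 1.02% were higher and 4.88% lower. B2_Mm1a was at 0.25 (from 0.23 to 0.28), B2_Mm1t at 0.17 (from 0.15 to 0.20) and B2_Mm2 at 0.11 (from 0.08 to 0.14). The summed ratio was 0.11 for B1, 0.19 for B2, 0.29 for B3, 0.29 for MIR, 0.38 for ID and 0.44 for B4.

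In OGA 32 of the 34 subfamilies were higher than in WT and B2_Mm1a and B2_Mm1t were lower. On total transposon counts and on total DNA transposon counts the name groups other than B4 were lower. B2_Mm1a was 1.65-fold lower (log2 ratio -0.72, from -0.75 to -0.70) and B2_Mm1t 1.52-fold lower (-0.60, from -0.63 to -0.57), while B2_Mm2 was at 0.17 (from 0.15 to 0.20). The median SINE difference was 0.53 against 0.64 for all 518 transposon subfamilies. AmnSINE1, with 193 counts against 74, was past 2-fold higher (1.26), where 16.2% of all subfamilies were, and no SINE was 2-fold lower, where 0.965% of all subfamilies were. After AmnSINE1 the highest of the 34 were B4A (0.77) and B4 (0.76), and the third lowest was MIR3 (0.08, with an interval that included 0). Relative to the median subfamily, B2_Mm1a (-1.36) and B2_Mm1t (-1.24) were past 2-fold lower, where 4.63% of subfamilies were, and no SINE was past 2-fold higher, where 1.93% were.

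The WT library of the repeat table stood apart from the other 3 in gene composition. Among genes with at least 100 counts, those in the lowest GC quintile had a median log2 difference of 0.56 in Dnmt1-/- to WT, 0.49 in D242A to WT and 0.59 in OGA to WT, and those in the highest quintile -0.29, -0.23 and -0.35. Between OGA and D242A the same medians were 0.08 and -0.08. Nuclear-retained RNAs (Malat1, Neat1 and Kcnq1ot1) summed to 84.4 cpm in WT, 161 in Dnmt1-/-, 249 in D242A and 136 in OGA. Histone genes of the replication-dependent clusters, the messages of which normally lack a poly(A) tail, summed to 62.6, 69.9, 89.0 and 38.9. For these histone genes D242A and OGA held the ends of the range, and WT lay between them. Markers of 2-cell-like cells (8 genes) summed to 42.4 cpm in WT and to between 0.521 and 1.85 cpm in the other 3 libraries. DNA transposons, which are no longer mobile in the mouse, stood at 519 cpm in WT, 712 in Dnmt1-/-, 703 in D242A and 860 in OGA. The part of these measures in the SINE differences was not tested. Both B2_Mm1a and B2_Mm1t were lower in OGA than in D242A on every scaling. The 7 other groups were higher with TMM factors of the gene counts, with log2 ratios from 0.24 to 0.34. On total DNA transposon counts they lay between -0.055 and 0.044, and 1 group turned. On total transposon counts, which include the LTR elements that were higher in OGA, all 7 were lower, from -0.36 to -0.26.

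Across the 4 libraries, 644 transposon subfamilies with at least 100 counts in total were compared with B2_Mm1a by the distance of their centred log2(cpm + 0.5) values. B2_Mm1t was the nearest, at a distance of 0.214. The next were 2 LTR subfamilies, LTR50 at 0.486 and ETnERV2-int at 0.562. LTR50 was counted 951 times in WT, 720 times in Dnmt1-/-, 878 times in D242A and 552 times in OGA. ETnERV2-int was counted 183, 232, 210 and 173 times. B2_Mm2 ranked 64th, at a distance of 0.990.

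Genes of which the products transcribe, bind or package SINE sequences were measured with replicates in WT and Dnmt1-/- cells, 3 libraries each, in files that hold genes and no repeats. Dnmt1 stood at 308, 352 and 347 in the WT libraries and at 73.6, 75.4 and 77.6 in the Dnmt1-/- libraries, in the normalised signal of these files (log2 difference -2.14, limma adjusted p = 1.1e-20). Of 50 listed genes 47 were tested, and 32 of them (68.1%) passed limma at an adjusted p under 0.05, 25 higher and 7 lower in Dnmt1-/-. Of all 17297 genes tested, 71.2% passed, 35.8% higher and 35.4% lower, so the share of listed genes that passed was near that of genes at large. RNA polymerase III subunits passed in 10 of 13 (9 higher), and the factors that place the polymerase at its genes in 9 of 17 (6 higher). Proteins and RNAs that bind SINE transcripts passed in 6 of 9 (4 higher), and chromatin factors in 7 of 8 (6 higher). The labels do not say that the replicates came from separate cultures, so these p-values measure the spread between the libraries, which may be technical.

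Of the 32, 3 changed by 1.5-fold or more in the limma fit, and the share of all tested genes that did so was not counted. Polr3g, the polymerase III subunit of pluripotent and proliferating cells, stood at 59.4, 54.2 and 55.1 in WT and at 136, 131 and 130 in Dnmt1-/-. It rose 2.34-fold (log2 difference 1.23 ± 0.05 SE, limma adjusted p = 2.6e-16), with no overlap between the groups. Adarb1, an editor of adenosines in double-stranded RNA, rose from 7.90 ± 0.42 to 18.5 ± 0.96 (SD, n = 3 each, limma adjusted p = 3.8e-12). The signal of Rn7sk, the 7SK RNA made by polymerase III, was 11.5 ± 0.73 in WT and 7.18 ± 0.52 in Dnmt1-/- (SD, n = 3 each, limma adjusted p = 9.4e-07). How well libraries of polyadenylated RNA capture 7SK was not tested, so this value may not follow its level.

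The remaining named genes moved less. Polr3a and Polr3c, the largest and a peripheral subunit, rose by log2 differences of 0.15 and 0.32 (limma adjusted p = 0.023 and 8.6e-06), and the call of Polr3a was lost without Dnmt1-/- replicate 3 or WT replicate 1 (adjusted p up to 0.17), while Polr3b, the second largest, was at 0.09 (adjusted p = 0.14). Bdp1, a part of the initiation factor TFIIIB, rose by 0.42 (limma adjusted p = 2.0e-06), and its partners Brf1 and Brf2 were at 0.01 and 0.12 (adjusted p = 0.90 and 0.13). Ssb, the La protein that binds new polymerase III transcripts, rose by 0.55 (limma adjusted p = 5.3e-09), and Srp9 and Srp14, which bind the 7SL fold that B1 shares, were at 0.04 and -0.06 (adjusted p = 0.59 and 0.35). Chd4 and Cbx1, a remodeller and an HP1 protein of silent chromatin, rose by 0.52 and 0.54 (limma adjusted p = 1.1e-08 and 5.8e-10). Fibroblast markers summed to between 1134 and 1629 in these WT libraries and to between 264 and 296 in the Dnmt1-/- libraries, and 2-cell-like markers to between 519 and 546 and to between 208 and 239. Their part in the gene differences was not tested.

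**Figure D5:**
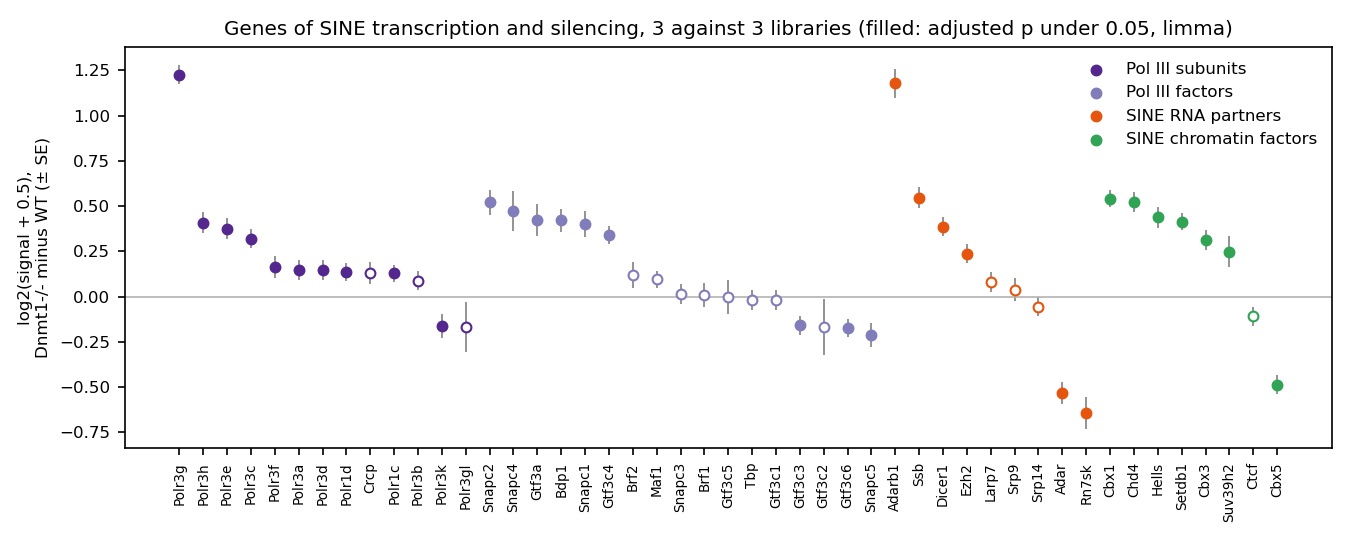
Log2 difference of signal + 0.5 between Dnmt1-/- and WT (vertical axis, ± SE of the limma fit, 3 libraries each) for 47 genes that transcribe, bind or package SINE sequences, coloured by list, with filled points where the adjusted p was under 0.05. Polr3g (1.23) and Adarb1 (1.18) are highest and Rn7sk (-0.64) is lowest.

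In the single libraries, 47 of the same 50 genes reached 100 counts in each comparison. Between OGA and D242A their median difference was 0.03 against 0.02 for all genes, and 1, Polr3gl, the alternative form of Polr3g, was 2-fold higher (97 counts against 286 in OGA), where 4.8% of all genes were. None of the 47 was 2-fold lower, where 7.31% of all genes were. Polr3g was counted 1428 times in WT, 2547 times in Dnmt1-/-, 2544 times in D242A and 2603 times in OGA, or 56.9, 136, 102 and 104 cpm, so WT was lowest and Dnmt1-/- highest. Of the 32 genes that passed in the replicates, 31 had a value in the single Dnmt1-/- and WT libraries, 16 with the same sign and 15 with the opposite sign. The agreement over all genes that passed was not counted. Polr3c was at 47.2 cpm in Dnmt1-/- and 67.5 cpm in WT (-0.51), and Chd4 at 902 and 943 cpm (-0.06), both among the opposite ones. Polr3a (0.05), Cbx1 (0.21), Adarb1 (0.60), Ssb (1.75) and Bdp1 (2.73) had the same sign, and Rn7sk was listed at 0 in all 4 libraries. In the 3 comparisons with WT, which share that library, 7 of the 47 were 2-fold higher and 0 lower in Dnmt1-/-, where 11.3% and 6.32% of all genes were. In D242A 6 were higher and 1 lower, where 12.9% and 8.01% of all genes were, and in OGA 7 were higher and 1 lower, where 14.2% and 9.64% were.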

How the data were processed

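RNA-seq libraries of mouse ES cells were analysed. For the 4 single libraries the authors deposited whole counts per gene (49671 identifiers) and per RepeatMasker subfamily, without normalization; reads were mapped to mm10, repeats with Bowtie2 2.2.2, and counted with featureCounts 1.5.0, per the study's methods and the submitters' processing notes. Reads on rRNA and mRNA were described as removed, yet an rRNA row took between 32.2% and 48.2% of the repeat counts and was left out. The library kit is named differently in the labels and the paper, so strand is not known. For the 6 replicate libraries (3 WT, 3 Dnmt1-/-) the authors deposited a normalized gene signal, mapped with HISAT2 2.1.0, and whole reads were recovered from 100% of its values within 0.02 of a read (26846275 to 37112247 reads per library). The single WT and Dnmt1-/- libraries are tied to no replicate. Fibroblast markers summed to 52.7 cpm in the single WT library and to between 1134 and 1629 in the signal of the WT replicates. For 2-cell-like markers the sums were 42.4 cpm and between 519 and 546. The single WT library was thus unlike the replicates in these markers, although the units differ. The ChIP samples were not analysed here.

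Repeat counts were divided by total gene counts. Subfamilies with at least 100 counts over 2 libraries were compared on log2(cpm + 0.5), and ratios without a pseudocount carry exact conditional binomial 95% intervals, cpm exact Poisson and shares Wilson intervals. Reads without molecular identifiers are not independent molecules. The background is all SINE, LINE, LTR and DNA transposon subfamilies. Genes were tested with limma 3.58.1 (trend) on log2(signal + 0.5) with Benjamini-Hochberg adjustment over all genes; alternatives on recovered reads were DESeq2 1.42.0 and the quasi-likelihood test of edgeR 4.0.16. A simulation of that comparison over 17185 genes changed 200 of them, all of which limma found, beside 8 others. The changed genes were well counted, differed 2-fold and had little spread between libraries. It therefore does not cover smaller changes, noisier genes or a comparison in which most genes differ. Other alternatives covered scaling, centring, pseudocount, minimum count, left-out libraries and a replicate block.

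Subfamilies named were the 2 with the most counts in each name group, the 3 highest and 3 lowest of each comparison, and B2_Mm1a and B2_Mm1t; B1_Mm, B1F, B1F2, B2_Mm2, MIR3, MIRc and the 4 rows under the minimum are also named, chosen after their values were seen where no rule names them. Genes named were the first 3 of each list and those past 1.5-fold; Adnp, first of the chromatin list, was not in the replicate files. Members, gene lists and tests were chosen with earlier results of these data known. The software was Python 3.11.15 with SciPy 1.17.1, NumPy 2.4.6, matplotlib 3.10.9 and pandas 2.3.3, and R 4.3.3.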

Additional observations from a re-analysis of the deposited data

Results flagged for a closer look

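Among rows of the repeat table outside the SINE class that hold polymerase III RNAs related to SINEs, BC1_Mm, 7SLRNA and 4.5SRNA stood above the control library in at least 1 comparison, and 4.5SRNA stood below it in others. BC1_Mm, the row of BC1 RNA, was counted 505 times in WT, 477 times in Dnmt1-/-, 672 times in D242A and 727 times in OGA. Its log2 ratio to WT was 0.34 in Dnmt1-/-, 0.43 in D242A and 0.53 in OGA. The median transposon subfamily was at 0.35, 0.33 and 0.64 in these comparisons, so BC1_Mm did not stand out from transposons at large. All ratios of these rows are on gene counts, and other scalings were not applied to them. 7SLRNA was counted 36, 43, 57 and 85 times in the same order, so its intervals were wide. Its log2 ratio to WT was 0.68 in Dnmt1-/- (95% counting interval from 0.009 to 1.36) and 0.68 in D242A (from 0.05 to 1.32). In OGA it was 1.25 (from 0.67 to 1.85), and between OGA and D242A 0.57 (from 0.07 to 1.08). The row 4.5SRNA, a B1-related RNA of rodents, was counted 120, 56, 172 and 98 times and stood above WT in D242A, by a log2 ratio of 0.53. It stood below WT in Dnmt1-/- (log2 ratio -0.67, 95% counting interval from -1.16 to -0.21), and was at -0.28 in OGA to WT (from -0.68 to 0.11). Each condition has 1 library, so none of these values has a replicate check. Their cause was not tested, nor how well libraries of polyadenylated RNA capture these RNAs.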

How the results depend on the processing

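Total gene counts scaled the reported values, and scaling changed the direction of most SINE groups but not of B2_Mm1a and B2_Mm1t in OGA. Their log2 ratios to D242A stayed between -1.57 and -0.97 and between -1.37 and -0.77, and those to WT between -1.49 and -0.72 and between -1.37 and -0.60. Which total is right for repeats was not tested.

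The log2 ratio of all SINEs is given for OGA to D242A, Dnmt1-/- to WT, D242A to WT and OGA to WT in turn. It was 0.09, 0.31, 0.22 and 0.31 as reported, 0.10, 0.26, 0.20 and 0.30 with TMM factors, 0.31, 0.23, 0.23 and 0.54 without B2, -0.50, 0.12, 0.051 and -0.45 on total transposon counts, and -0.20, -0.15, -0.22 and -0.42 on total DNA transposon counts.

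On total transposon counts the direction turned in OGA to D242A for B1 (-0.28), proto-B1 (-0.26), B3 (-0.28), B4 (-0.27), ID (-0.29), MIR (-0.36), the other SINEs (-0.29) and B2_Mm2 (-0.53). In OGA to WT it turned for B1 (-0.34), proto-B1 (-0.22), B3 (-0.16), ID (-0.087), MIR (-0.24), the other SINEs (-0.19) and B2_Mm2 (-0.59). In Dnmt1-/- to WT it turned for B1 (-0.021), MIR (-0.0048) and B2_Mm2 (-0.00069), and in D242A to WT for B1 (-0.059) and B2_Mm2 (-0.058).

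On total DNA transposon counts it turned in OGA to D242A for MIR (-0.055) and B2_Mm2 (-0.23). In Dnmt1-/- to WT it turned for B1 (-0.29), proto-B1 (-0.22), B3 (-0.21), B4 (-0.085), ID (-0.12), MIR (-0.27), the other SINEs (-0.21), B2_Mm1t (-0.010) and B2_Mm2 (-0.27). In D242A to WT it turned for B1 (-0.33), proto-B1 (-0.22), B2 (-0.24), B3 (-0.15), ID (-0.063), MIR (-0.15), the other SINEs (-0.17), B2_Mm1a (-0.18), B2_Mm1t (-0.27) and B2_Mm2 (-0.32). In OGA to WT it turned for B1 (-0.31), proto-B1 (-0.18), B3 (-0.13), ID (-0.051), MIR (-0.20), the other SINEs (-0.16) and B2_Mm2 (-0.55).

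The count of SINE subfamilies 2-fold lower in OGA, 0 as reported, was 2 against D242A and 2 against WT on total transposon counts, on total DNA transposon counts and relative to the median subfamily. The count 2-fold higher in OGA than in WT, 1 as reported, was 0 on those 3 settings, with a pseudocount of 5 cpm and with a minimum of 1000 counts, and 2 with a minimum of 20. That minimum also gave 1 in D242A to WT. Grouping by RepeatMasker family was not run, since the table gives the class only.

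Of the listed genes 32 passed in limma, 33 in edgeR, 31 in DESeq2, 31 without a filter and 32 with a pseudocount of 5, and between 28 and 33 when 1 library was left out. With the replicate block 34 passed. Deviations of libraries with the same replicate number correlated at 0.074, -0.016 and 0.065, and not every WT library correlated best with its own number, so the numbers were not taken to pair the libraries. Leaving out 1 library ended the calls of Polr1c, Polr1d, Polr3a, Polr3d, Polr3f, Polr3k and Suv39h2 in at least 1 case each, and among the genes named that holds for Polr3a, without Dnmt1-/- replicate 3 or WT replicate 1 and also in DESeq2. The block ended no call.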

Other observations

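4.5SRNA was lower in OGA than in D242A (log2 ratio -0.82, 95% counting interval from -1.19 to -0.45), on 98 and 172 counts. BC1_Mm was at 0.11 in that comparison (from -0.05 to 0.26). The rows 7SK and U6 held between 26 and 49 counts per library, and their intervals included 0 in every comparison.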
